A study of Mus musculus with 7 samples.

Results

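The genes described here encode the machinery that docks, primes and fuses secretory vesicles. They were chosen by gene symbol and not by a limit on any measured value, though earlier results of these data were known. The families were the synaptotagmins (Syt), synapsins (Syn), SNAP proteins (Snap), VAMPs (Vamp), syntaxins (Stx), syntaxin-binding proteins (Stxbp), Rab3 GTPases, complexins (Cplx), SV2 glycoproteins (Sv2) and Rim scaffolds (Rims). These families held 65 of the 29777 genes in the count table. At least 1 count was found for 63 of them, and 54 passed the filter on low counts and were tested. RNA was sequenced from GFP-positive cells sorted out of cervical dorsal root ganglia of ICR mouse embryos at E11.5, labelled as TrkC neurons. The 4 homozygote libraries were Runx3-P2-/- and the 3 heterozygote libraries were Runx3-P2+/-. GFP lies in the Runx3-P2 allele itself, so homozygotes carried it on both copies of the locus and heterozygotes on one, and no library came from embryos without it. The design text speaks of pools of 4 without saying what was pooled, and nothing states that the libraries came from separate litters, so every p-value measures the spread between these libraries. The comparison asks how expression in these neurons differs when both copies of the locus of Runx3, a Runt-family transcription factor, carry the allele.

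Vesicle release depends on SNARE proteins, which sit on the vesicle (VAMPs) and on the target membrane (syntaxins and SNAP proteins) and zip together to pull the membranes into contact. Sec1/Munc18 proteins of the Stxbp family clasp syntaxins and help the bundle form, complexins hold it primed, and calcium-binding synaptotagmins trigger fusion. Synapsins tether vesicles in a reserve pool, SV2 proteins span the vesicle membrane, and Rab3 with Rim places vesicles at release sites. In embryonic sensory neurons the same proteins are present before synapses form, in axons and growth cones, while related non-neuronal SNAREs serve secretion and endosome traffic in most cell types.

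Total counts ran from 11184237 to 13986835 per library. The 65 genes took 0.376 to 0.516% of the counts in homozygote libraries and 0.48 to 0.568% in heterozygote libraries. Runx3 itself had 6.56, 11.5, 6.49 and 12.1 CPM (the count relative to the effective library size, in parts per 1000000) in homozygotes, against 67.2, 94.1 and 94.5 CPM in heterozygotes. It fell, with a log2 fold change of -3.22 ± 0.30 (SE) at an adjusted p of 0.00593 by the edgeR quasi-likelihood test with Benjamini-Hochberg adjustment. Ntrk3, which encodes TrkC, was detected in every library, at 54.9 to 236 CPM in homozygotes and 128 to 194 CPM in heterozygotes. A list of 16 leukocyte markers, 15 of them tested and none of these at 0 in every library (Cx3cr1, Lyz2 and C1qc had 0 counts in heterozygote library 3), summed to 675, 794, 4090 and 943 CPM in homozygote libraries 1 to 4, against 333, 344 and 291 CPM in heterozygote libraries 1 to 3. Of these sums Coro1a alone gave 247, 261, 621 and 317 CPM in homozygotes and 208, 226 and 283 CPM in heterozygotes, with overlap. Homozygote library 3 stood apart by the summed markers, and heterozygote library 3 had the lowest mean log2 CPM of the markers, at -0.42. This mean was 4.39, 5.06, 7.61 and 5.38 in homozygotes, against 3.11, 2.93 and -0.42 in heterozygotes, without overlap. A fit with this mean as a covariate therefore cannot fully separate it from genotype. A list of 16 pan-neuronal genes, 15 of them tested, summed to 24330, 24945, 15876 and 26632 CPM in homozygotes, against 25442, 25088 and 29524 CPM in heterozygotes, lowest in homozygote library 3 and highest in heterozygote library 3. A list of 13 erythroid and platelet markers, 8 of them tested, summed to 46.2, 21.2, 392 and 160 CPM in homozygotes, against 8.42, 116 and 0.956 CPM in heterozygotes. Summed CPM of 14 spinal cord markers were 166, 121, 189 and 73.2 in homozygotes, against 102, 73.3 and 34.7 in heterozygotes. Those of 11 mesenchyme markers were 230, 260, 446 and 120 in homozygotes, against 248, 170 and 64.2 in heterozygotes. Both lists were highest in homozygote library 3 and lowest in heterozygote library 3, which was not so for neural crest and glia markers.

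None of the 54 tested genes was called by edgeR at an adjusted p below 0.05, a rule that called 7 of all 14040 tested genes (0.0499%). At an unadjusted p below 0.05 in edgeR, 10 of the 54 were lower in homozygotes (18.5%), against 4.88% of all tested genes, and 3 were higher (5.56%), against 7.75% of all tested genes. Lower members at that threshold numbered 5 without homozygote library 3 and heterozygote library 3 (against 3.05% of all tested genes), 6 without heterozygote library 3 alone (against 3.21%) and 0 with the mean of the leukocyte markers as a covariate (against 1.98%), and with higher ones they made 7, 8 and 1 in place of 13. DESeq2 called 6 of the 56 members to which it gave an adjusted p. Vamp8 and Stxbp2 were higher in homozygotes (3.57%, against 3.46% of all genes it tested), and Syn2, Syt9, Syt16 and Cplx1 were lower (7.14%, against 1.3%). Homozygote and heterozygote libraries did not overlap for 7 members that were lower in homozygotes (13%, against 5.78% of all tested genes) and 2 that were higher (3.7%, against 6.6%). The median log2 fold change, homozygote over heterozygote, was -0.21 over the 54 members, with 19 positive and 35 negative, and -0.0177 over all tested genes, with 6781 positive and 7259 negative. The pan-neuronal list had a median of -0.22, close to that of the members, and scaling the libraries to the pan-neuronal genes gave medians of 0.0275 for the members and 0.24 for all tested genes. The members' median minus that of all tested genes was -0.20 as reported and -0.21 under that scaling. The difference was -0.0847 without homozygote library 3 and heterozygote library 3 (members' median -0.0933), -0.0681 without homozygote library 3 alone, -0.0533 in a window of label dates without homozygote libraries 1 and 3, and 0.0152 with the leukocyte mean as a covariate. In bulk RNA, fewer cells of a type and less RNA per cell cannot be told apart. In the authors' deposited table, 5 members had an adjusted p below 0.05, and 4 of these, Vamp8, Stxbp2, Syn2 and Syt9, also differed at least 2-fold. The share of all genes past these limits is not given here, so neither count is shown to be an excess. In the authors' deposited table the log2 fold changes, with the sign turned to homozygote over heterozygote, were 2.13 for Vamp8, 1.48 for Stxbp2, -1.16 for Syn2, -1.70 for Syt9 and -0.96 for Syt16.

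**Figure D1:**
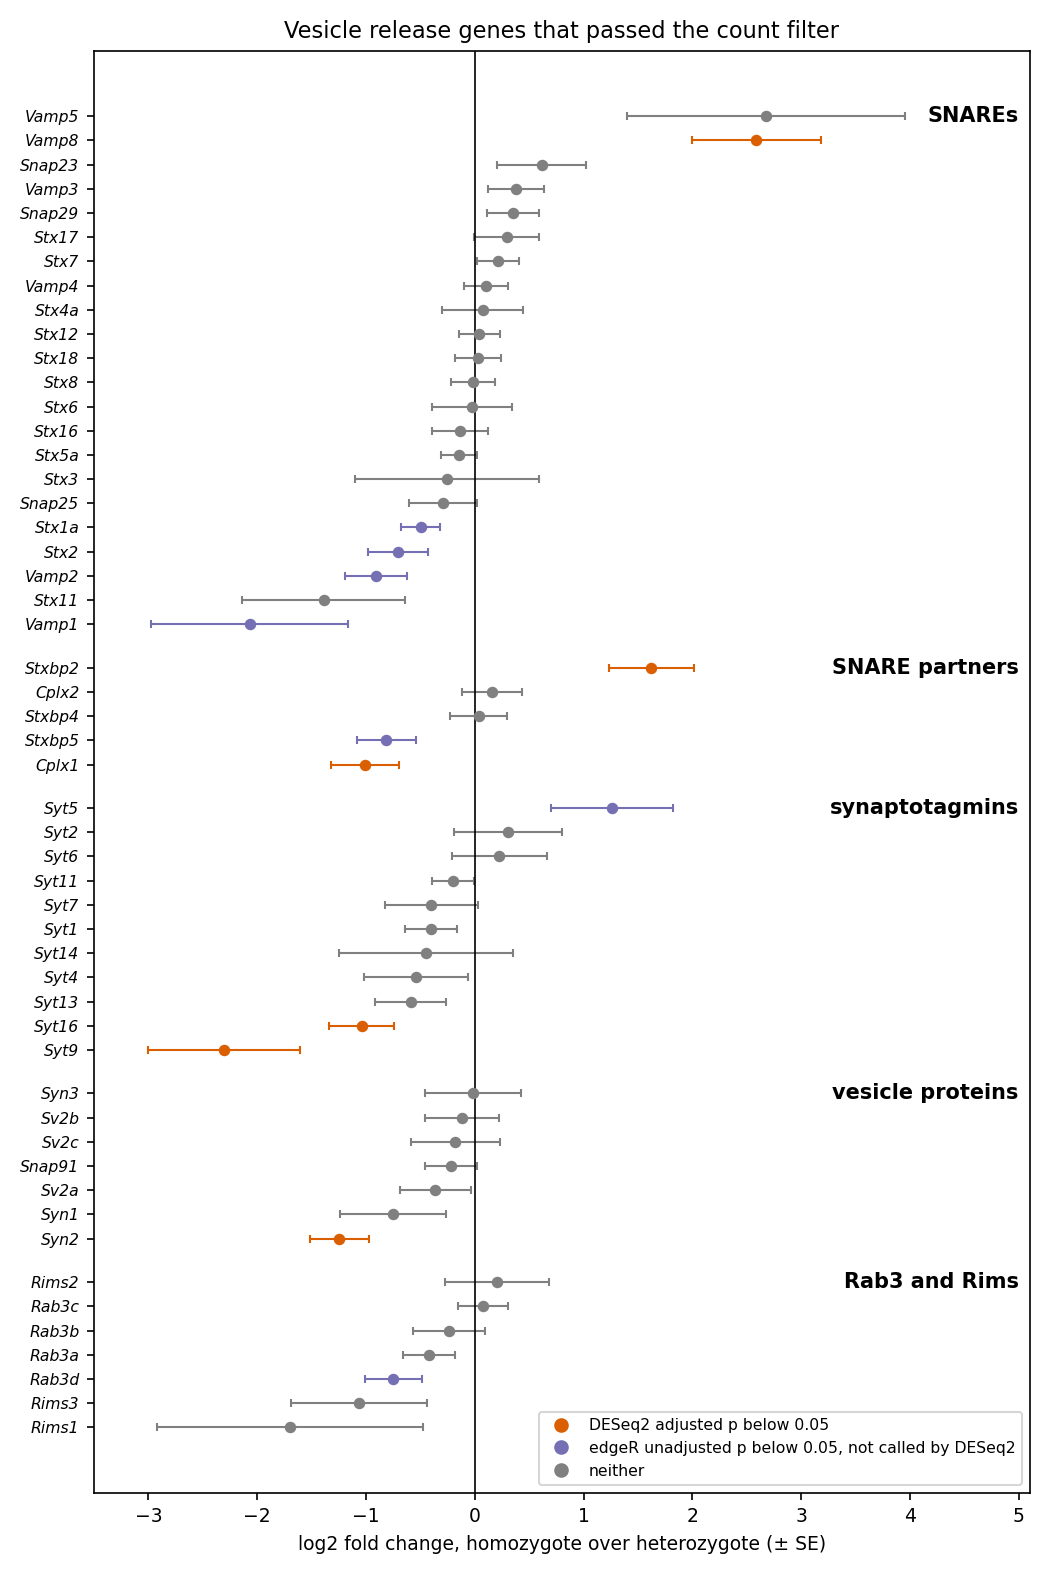
Log2 fold change, homozygote over heterozygote, of 52 of the 54 tested genes (edgeR; bars are ± 1 SE), grouped by the role of their family, with the 6 genes called by DESeq2 in orange, others with an unadjusted edgeR p below 0.05 in purple and the rest in grey. Vamp8 and Stxbp2 lie right of 0 and Syn2, Syt9, Syt16 and Cplx1 left of it, while the SNAREs straddle 0 and all 7 vesicle proteins lie left of it under TMM scaling (3 of the 7 under pan-neuronal scaling).

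The SNAREs comprised 24 of the 65 genes, of which 23 were tested. Their median log2 fold change was -0.0185, with 11 positive and 12 negative, and the 3 that lay farthest from 0 were the VAMPs Vamp5, Vamp8 and Vamp1. Relative to the pan-neuronal genes 15 were positive and 8 negative, with a median of 0.27. Vamp8, a VAMP of endosomes and of the secretory granules of platelets, mast cells and exocrine cells, had 25.5, 18.8, 81.0 and 25.5 CPM in homozygotes, against 7.02, 8.82 and 2.96 CPM in heterozygotes. Every homozygote library was above every heterozygote library, with the highest value in homozygote library 3 and the lowest in heterozygote library 3. Its mean was 37.7 ± 29 CPM in homozygotes and 6.27 ± 3.0 CPM in heterozygotes (SD, n = 4 and 3). The log2 fold change was 2.59 ± 0.60 (SE), at an adjusted p of 0.128 in edgeR and 0.000219 in DESeq2. Vamp2, also called synaptobrevin, is the vesicle SNARE of fast transmitter release, and it had 41.9, 45.7, 37.5 and 34.0 CPM in homozygotes, against 42.6, 106 and 75.4 CPM in heterozygotes. The homozygotes were close together, and heterozygote library 1 lay within their range. Its log2 fold change was -0.91 ± 0.29 (SE), at an adjusted p of 0.211 in edgeR and 0.0736 in DESeq2. Vamp3, or cellubrevin, the ubiquitous relative of Vamp2 on recycling endosomes, had 96.8, 63.6, 89.1 and 51.0 CPM in homozygotes, against 70.2, 49.5 and 53.7 CPM in heterozygotes, with overlap between genotypes (log2 fold change 0.38 ± 0.26, SE). Vamp4, a SNARE of the trans-Golgi network, was the most abundant VAMP by CPM, at 81.1 to 125 CPM in homozygotes and 83.7 to 109 CPM in heterozygotes. Vamp5, a muscle-enriched VAMP, had 2.99, 0.855, 12.3 and 2.80 CPM in homozygotes, against 0.39, 1.82 and 0 CPM in heterozygotes, and its groups overlapped.

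Among target-membrane SNAREs, Stx1a, the syntaxin of the presynaptic plasma membrane, had 155, 185, 130 and 190 CPM in homozygotes, against 235, 196 and 268 CPM in heterozygotes. All 4 homozygote libraries were below all 3 heterozygote libraries, although homozygote library 4 and heterozygote library 2 were nearly equal. The log2 fold change was -0.50 ± 0.18 (SE), at an adjusted p of 0.282 in edgeR and 0.185 in DESeq2. Snap25, the neuronal partner of Stx1a, had 403, 615, 261 and 646 CPM in homozygotes, against 565, 415 and 788 CPM in heterozygotes. Its groups overlapped widely, with homozygote library 3 lowest, and its log2 fold change was -0.29 ± 0.32 (SE), at an adjusted p of 0.796 in edgeR. Snap23, the SNAP protein of non-neuronal secretion, had 75.0, 41.6, 109 and 47.0 CPM in homozygotes, against 72.1, 31.8 and 29.3 CPM in heterozygotes, highest again in homozygote library 3, and its log2 fold change was 0.0694 without homozygote library 3 and heterozygote library 3. Snap29, which acts in endosome and autophagosome fusion, had 37.3, 56.2, 44.3 and 67.5 CPM in homozygotes, against 40.3, 39.9 and 40.7 CPM in heterozygotes. Stx7, a late-endosomal syntaxin, had 394, 381, 311 and 505 CPM in homozygotes, against 361, 282 and 387 CPM in heterozygotes. None of these last 4 genes separated the genotypes, and their edgeR log2 fold changes lay between -0.29 and 0.61.

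Per kilobase of exon, Snap25 had the highest level of the members, at 215 CPM per kb in homozygotes and 264 CPM per kb in heterozygotes, both as means over libraries. Syt11 followed at 192 CPM per kb in homozygotes and 221 CPM per kb in heterozygotes, and the ranges of these 2 genes over libraries overlapped in each genotype. Next came Stx12, a recycling-endosome syntaxin, at 127 CPM per kb in homozygotes and 123 CPM per kb in heterozygotes, then Stx7 at 106 CPM per kb in homozygotes and 91.3 CPM per kb in heterozygotes. Stx1a reached 76.3 CPM per kb in homozygotes and 108 CPM per kb in heterozygotes.

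**Figure D2:**
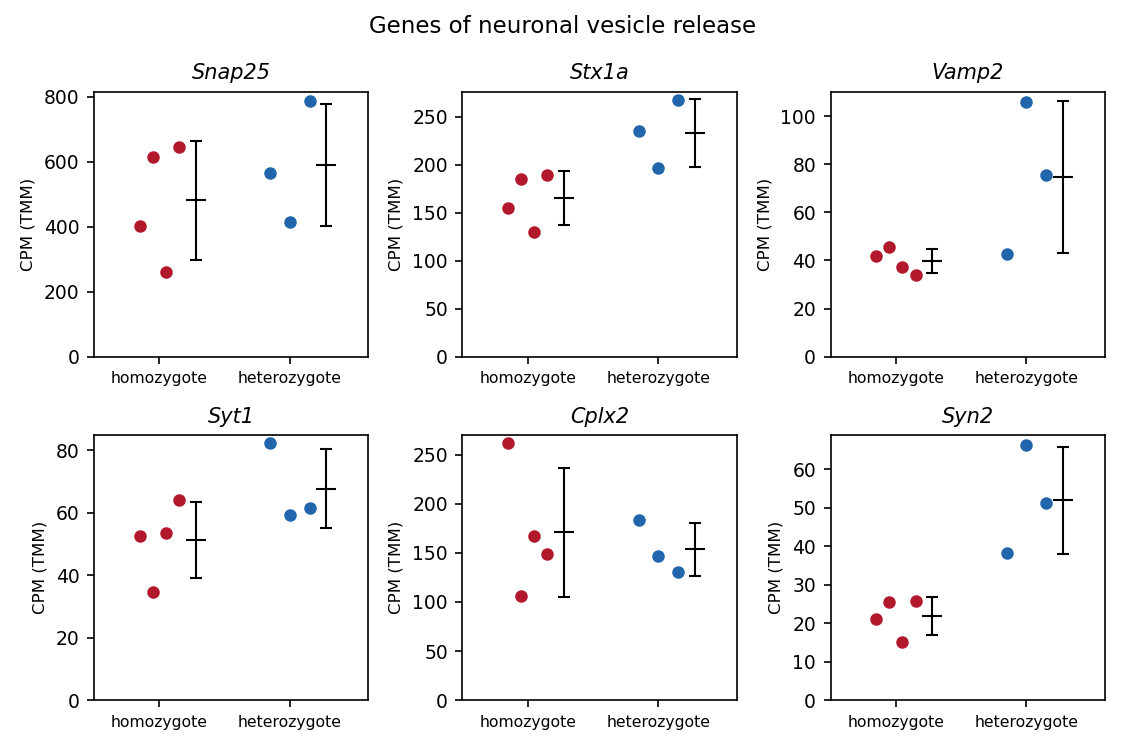
CPM after TMM scaling of 6 genes of neuronal vesicle release in each homozygote library (red, left) and heterozygote library (blue, right), with mean ± SD beside the points. The 4 homozygotes sit below the 3 heterozygotes for Stx1a and Syn2, and the 2 groups overlap for Snap25, Vamp2, Syt1 and Cplx2.

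The SNARE partners, 9 Stxbp and complexin genes with 6 tested, held members that differed in opposite directions. Stxbp2 encodes Munc18-2, the Sec1/Munc18 protein of epithelia, mast cells, platelets and cytotoxic lymphocytes. It had 40.1, 41.3, 98.1 and 40.9 CPM in homozygotes, against 21.5, 20.3 and 11.8 CPM in heterozygotes. All homozygote libraries were above all heterozygote libraries, and homozygote library 3 and heterozygote library 3 were again the highest and the lowest. The means were 55.1 ± 28.7 CPM in homozygotes and 17.9 ± 5.29 CPM in heterozygotes (SD, n = 4 and 3). The log2 fold change was 1.62 ± 0.39 (SE), at an adjusted p of 0.135 in edgeR and 0.00227 in DESeq2. Stxbp5, or tomosyn, which binds syntaxin and SNAP-25 in place of a VAMP and limits release, had 22.7, 13.8, 14.4 and 17.5 CPM in homozygotes, against 33.4, 30.2 and 26.8 CPM in heterozygotes. The groups did not overlap, and the log2 fold change was -0.81 ± 0.27 (SE), at an adjusted p of 0.238 in edgeR and 0.0815 in DESeq2.

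Vamp8 and Stxbp2, the pair that DESeq2 called as higher, were both highest in the library with the highest leukocyte sum (4090 CPM) and lowest in the library with the lowest (291 CPM). Of that lowest sum Coro1a alone gave 283 CPM, and the mean log2 CPM of the markers was also lowest there, at -0.42. All 15 tested leukocyte markers had a positive log2 fold change, with a median of 3.98, and 14 had an unadjusted p below 0.05 in edgeR. The 8 tested erythroid and platelet markers had a median log2 fold change of 4.43, but were split. Gata1, Pf4, Ppbp, Itga2b and Gp9, the 5 positive ones, lay between 4.36 and 8.67. The 3 tested globin genes were negative, at -3.26 for Hbb-y, -1.64 for Hba-x and -0.0827 for Hbb-bh1. The leukocyte mean was higher in every homozygote library than in any heterozygote library, so a fit with it cannot fully separate it from genotype. Of all tested genes, edgeR called 0 in that fit. With the leukocyte mean as a covariate in edgeR, the log2 fold changes were 0.63 for Vamp8 and 0.33 for Stxbp2. DESeq2 with that covariate called 0 members, and 42 of all genes in place of 719. edgeR also called 0 members, and each tool had 1 member at an unadjusted p below 0.05. Without homozygote library 3 and heterozygote library 3 the log2 fold changes in edgeR were 1.56 for Vamp8 and 0.96 for Stxbp2. Vamp8 was the 1 member that DESeq2 still called there, among 240 genes in all. The part of leukocytes, platelets or other non-neuronal cells in these differences was not tested. The sequences around the RefSeq transcription starts of Vamp8 and Stxbp2 (GRCm38.p6; 250 bases before and 50 after, 300 in all, 5′ to 3′ on the coding strand) are shown because both genes were called as higher by DESeq2. Vamp8 lies at chr6:72390618-72390917 on the minus strand, and Stxbp2 at chr8:3630859-3631158 on the plus strand.
Vamp8: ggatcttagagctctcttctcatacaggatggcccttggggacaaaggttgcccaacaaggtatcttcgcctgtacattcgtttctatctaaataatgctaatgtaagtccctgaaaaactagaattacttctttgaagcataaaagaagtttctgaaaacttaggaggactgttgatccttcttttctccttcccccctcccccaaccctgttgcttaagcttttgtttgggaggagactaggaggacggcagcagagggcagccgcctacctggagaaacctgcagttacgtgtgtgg
Stxbp2: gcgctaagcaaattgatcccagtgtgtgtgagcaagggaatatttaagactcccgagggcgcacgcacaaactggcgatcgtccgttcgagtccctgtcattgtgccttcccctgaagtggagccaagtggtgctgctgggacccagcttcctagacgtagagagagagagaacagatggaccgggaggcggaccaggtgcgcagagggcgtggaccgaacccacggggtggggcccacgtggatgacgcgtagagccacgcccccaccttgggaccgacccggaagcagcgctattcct
The Vamp8 sequence had 46.7% G and C and 5 CG dinucleotides, and the Stxbp2 sequence had 61.3% and 22. The medians were 53% and 7 over the distinct sequences among the 32851 promoters. Neither held TGTGGT, the core letters recognised by Runt-family factors, on either strand.

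The complexins clamp and prime the assembled SNARE bundle. Cplx1 had 118, 91.6, 47.6 and 115 CPM in homozygotes, against 166, 141 and 256 CPM in heterozygotes. No homozygote library reached the lowest heterozygote library, and homozygote library 3 was lowest and heterozygote library 3 highest. The means were 93.1 ± 32.5 CPM in homozygotes and 187 ± 60.3 CPM in heterozygotes (SD, n = 4 and 3), and the log2 fold change was -1.01 ± 0.31 (SE), at an adjusted p of 0.206 in edgeR and 0.0492 in DESeq2. With the leukocyte mean as a covariate in edgeR its log2 fold change was 0.0586, and without homozygote library 3 and heterozygote library 3 it was -0.50. Cplx2, the other complexin detected at more than a few counts, had 262, 106, 167 and 149 CPM in homozygotes, against 184, 146 and 130 CPM in heterozygotes, and its log2 fold change was 0.16 ± 0.28 (SE), at an adjusted p of 0.892 in edgeR.

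Of 17 synaptotagmins, 11 were tested, with a median log2 fold change of -0.40, 3 positive and 8 negative, and of -0.13 relative to the pan-neuronal genes. Syt9, a fast calcium sensor for release, had 2.84, 2.49, 2.08 and 16.0 CPM in homozygotes, against 18.9, 39.4 and 28.3 CPM in heterozygotes. All homozygotes were below all heterozygotes, but homozygote library 4 lay near heterozygote library 1 and far above the other homozygotes. The means were 5.86 ± 6.78 CPM in homozygotes and 28.9 ± 10.3 CPM in heterozygotes (SD, n = 4 and 3). The log2 fold change was -2.30 ± 0.70 (SE), at an adjusted p of 0.193 in edgeR and 0.0212 in DESeq2. Without homozygote library 4, edgeR called Syt9 (log2 fold change -3.54, adjusted p = 0.0412). Syt16, a synaptotagmin-related protein that does not bind calcium, had 16.1, 12.6, 14.3 and 20.3 CPM in homozygotes, against 22.5, 32.4 and 42.6 CPM in heterozygotes. The groups did not overlap, with a log2 fold change of -1.04 ± 0.30 (SE), at an adjusted p of 0.176 in edgeR and 0.0372 in DESeq2. With the leukocyte mean as a covariate, edgeR gave log2 fold changes of -1.94 for Syt9 and -0.52 for Syt16. Without homozygote library 3 and heterozygote library 3 they were -2.03 for Syt9 and -0.75 for Syt16, and DESeq2 called neither.

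The other synaptotagmins described here overlapped between genotypes. Syt1, the main calcium sensor of synchronous release, had 52.7, 34.6, 53.5 and 63.9 CPM in homozygotes, against 82.3, 59.4 and 61.4 CPM in heterozygotes. Homozygote library 4 lay above 2 heterozygote libraries, and the log2 fold change was -0.40 ± 0.24 (SE), at an adjusted p of 0.553 in edgeR. Syt11, a synaptotagmin without calcium binding that acts in endocytosis, was the most abundant member by CPM, at 1092, 1086, 731 and 1047 CPM in homozygotes, against 1122, 907 and 1391 CPM in heterozygotes (log2 fold change -0.20 ± 0.19, SE), with overlap. Syt5, a calcium-binding synaptotagmin, had 4.08, 6.53, 9.37 and 18.9 CPM in homozygotes, against 4.60, 3.11 and 4.43 CPM in heterozygotes. Homozygote library 1 lay inside the heterozygote range, and the log2 fold change was 1.26 ± 0.56 (SE), at p-values in edgeR of 0.0493 unadjusted and 0.393 adjusted.

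The 7 vesicle proteins, namely 3 synapsins, 3 SV2 proteins and the clathrin adaptor Snap91, were all tested, and all 7 log2 fold changes were negative, with a median of -0.22, although 1 was positive with scaling by library totals alone and 4 were after scaling to the pan-neuronal genes (median 0.0228). Syn2, a synapsin that tethers vesicles in the reserve pool, had 21.2, 25.5, 15.2 and 25.7 CPM in homozygotes, against 38.4, 66.3 and 51.2 CPM in heterozygotes. Every homozygote library was below every heterozygote library. The means were 21.9 ± 4.91 CPM in homozygotes and 51.9 ± 14 CPM in heterozygotes (SD, n = 4 and 3). The log2 fold change was -1.24 ± 0.28 (SE), at an adjusted p of 0.126 in edgeR and 0.00249 in DESeq2. It was -0.96 with the leukocyte mean as a covariate, -1.11 without homozygote library 3 and heterozygote library 3, and -1.03 after scaling to the pan-neuronal genes, at adjusted p-values above 0.05 in edgeR. The other synapsins differed less. Syn1 had a log2 fold change of -0.75 ± 0.49 (SE) and Syn3 of -0.0162, both with overlap. Sv2a, the most abundant SV2 protein, had 70.3, 34.1, 32.8 and 55.5 CPM in homozygotes, against 42.4, 58.1 and 85.6 CPM in heterozygotes, with wide overlap (log2 fold change -0.36 ± 0.33, SE).

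Sequences were matched in the RefSeq promoter table for 50 of the 65 genes, 12 of them with more than 1 promoter. Syn2 has a pair of starts there, and both are shown because Syn2 had the smallest edgeR p of the members and only its downstream promoter held TGTGGT. The first lies at chr6:115134652-115134951 and the second at chr6:115238744-115239043, both on the plus strand, and the capitals mark TGTGGT.
Syn2 promoter 1: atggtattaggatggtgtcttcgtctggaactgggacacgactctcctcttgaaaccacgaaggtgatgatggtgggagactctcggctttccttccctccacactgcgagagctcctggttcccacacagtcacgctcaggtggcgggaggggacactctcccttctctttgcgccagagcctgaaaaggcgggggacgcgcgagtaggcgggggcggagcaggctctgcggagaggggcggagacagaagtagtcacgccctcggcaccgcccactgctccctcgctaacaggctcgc
Syn2 promoter 2: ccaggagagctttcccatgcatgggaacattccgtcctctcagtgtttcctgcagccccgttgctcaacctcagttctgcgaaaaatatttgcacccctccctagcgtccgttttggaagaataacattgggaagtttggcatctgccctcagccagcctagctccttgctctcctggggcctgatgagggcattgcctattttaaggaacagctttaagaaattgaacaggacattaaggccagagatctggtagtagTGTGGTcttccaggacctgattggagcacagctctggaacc
The capitals lie 9 to 14 positions past the first of the last 50 bases of the window. The first sequence had 62.3% G and C and 21 CG dinucleotides, and the second had 51% and 5. TGTGGT, searched on both strands, was found in 16.8% of all 32851 promoters and in 8 of 66 promoters of the matched members (12.1%). By gene it was in 7 of 50 matched members (14%), against 18.9% of all 27025 genes searched. The members were Rab3a, Stx2, Stx5a, Stxbp4 and Syn2, and Cplx3 and Syt8, which were not tested for expression. TTCAGCACC, part of the element bound by the neuronal repressor REST, was found on either strand in 0.371% of all promoters and in 1 member, Syn1. Such matches describe letters in a window and do not show binding. Cplx4, Rims2, Rims4, Snap25, Syn3, Syt12, Syt13, Syt17, Syt4, Syt5, Syt7, Vamp2 and Vamp3 were among those not matched.

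The Rab3 GTPases and Rim scaffolds, 8 genes with 7 tested, had a median log2 fold change of -0.42, with 2 positive and 5 negative, and of -0.14 relative to the pan-neuronal genes. Rab3d, a Rab3 GTPase best known from regulated secretion in exocrine cells, was the most abundant of them by CPM, at 72.1, 72.2, 50.2 and 98.0 CPM in homozygotes, against 106, 97.8 and 164 CPM in heterozygotes. Homozygote library 4 lay just above heterozygote library 2, so the groups overlapped, and the log2 fold change was -0.75 ± 0.26 (SE), at p-values in edgeR of 0.0162 unadjusted and 0.25 adjusted. Rims2, the most abundant Rim by CPM, had 25.2, 19.8, 7.69 and 10.6 CPM in homozygotes, against 9.51, 10.3 and 21.3 CPM in heterozygotes, with no separation (log2 fold change 0.21 ± 0.48, SE).

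**Figure D3:**
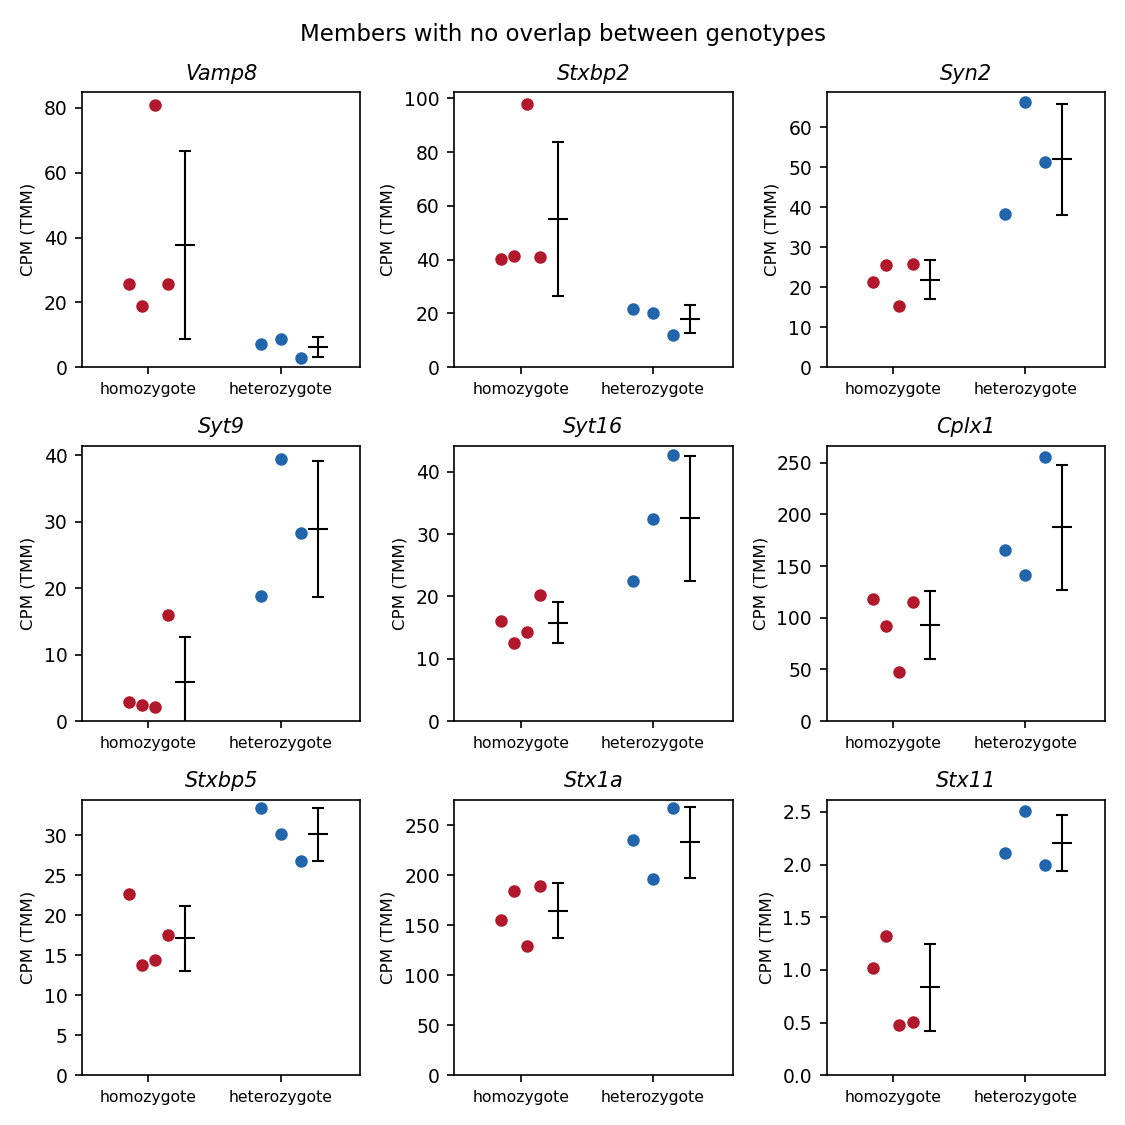
CPM after TMM scaling of the 9 members whose homozygote libraries (red, left) and heterozygote libraries (blue, right) did not overlap, with mean ± SD beside the points. Vamp8 and Stxbp2 were higher in homozygotes, with homozygote library 3 at 81.0 and 98.1 CPM, and Syn2, Syt9, Syt16, Cplx1, Stxbp5, Stx1a and Stx11 were lower.

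A further 29 tested members had log2 fold changes between -2.07 for Vamp1 and 0.30 for Syt2. Vamp1, Stx2 and Stx11 are singled out here after their values were seen. Vamp1, a VAMP prominent in motor neurons, had 0.438, 1.09, 0.801 and 6.44 CPM in homozygotes, against 5.85, 16.9 and 4.87 CPM in heterozygotes, and homozygote library 4 alone lay inside the heterozygote range (unadjusted p = 0.0452 and adjusted p = 0.382, edgeR). Stx2, a broadly expressed plasma-membrane syntaxin, had 33.5, 33.1, 24.0 and 42.2 CPM in homozygotes, against 35.9, 68.0 and 58.8 CPM in heterozygotes, with overlap (unadjusted p = 0.0287 and adjusted p = 0.321, edgeR). Stx11, a syntaxin of cytotoxic lymphocytes and platelets that works with Stxbp2, had 1.02, 1.32, 0.481 and 0.509 CPM in homozygotes, against 2.11, 2.51 and 2.0 CPM in heterozygotes. Stx11 was lower in every homozygote library at very low levels, the opposite direction to Stxbp2, at an unadjusted p of 0.0938 and an adjusted p of 0.505 in edgeR.

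The 11 members left out by the count filter had few counts, or counts in few libraries. A count of 0 in a library allows a level of up to 3 counts, which was 0.218 to 0.254 CPM in homozygote libraries and 0.234 to 0.261 CPM in heterozygote libraries. Syt8 and Syt15 had 0 counts in every library. Summed counts in homozygotes and heterozygotes were 3 and 7 for Cplx3, 3 and 4 for Cplx4, 4 and 3 for Rims4, 12 and 6 for Syt12, 12 and 60 for Syt17, 4 and 25 for Syt3 and 0 and 9 for Syt10. Stxbp6 had 60 counts in homozygotes, of which homozygote library 2 held 57, and 11 in heterozygotes. Stx19 had 0 counts in homozygotes and 39 in heterozygotes, split as 29, 0 and 10 over the libraries. edgeR did not test these genes, while DESeq2 gave adjusted p-values of 0.214 for Stx19 and 0.276 for Syt17.

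Within families, the share of one member in a set of related members was compared by library. These sets were chosen after the values were seen and carry no test. Vamp8 made up 15.4, 15, 38.8 and 23.4% of the summed CPM per kb of Vamp2, Vamp3 and Vamp8 in homozygotes, against 5.92, 5.90 and 2.40% in heterozygotes. This share was higher in every homozygote library than in any heterozygote library. Cplx1 made up 50.4, 66, 39.0 and 63.5% of Cplx1 and Cplx2 in homozygotes, against 67.0, 68.5 and 81.5% in heterozygotes, a difference of about 1 percentage point between the nearest libraries. The shares of Syn2 among synapsins, of Syt9 among Syt1, Syt2 and Syt9, and of Snap25 among Snap23 and Snap25 overlapped between genotypes. Snap25 held 74.8 to 94.8% of its pair in homozygotes and 90.6 to 97.1% in heterozygotes.

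**Figure D4:**
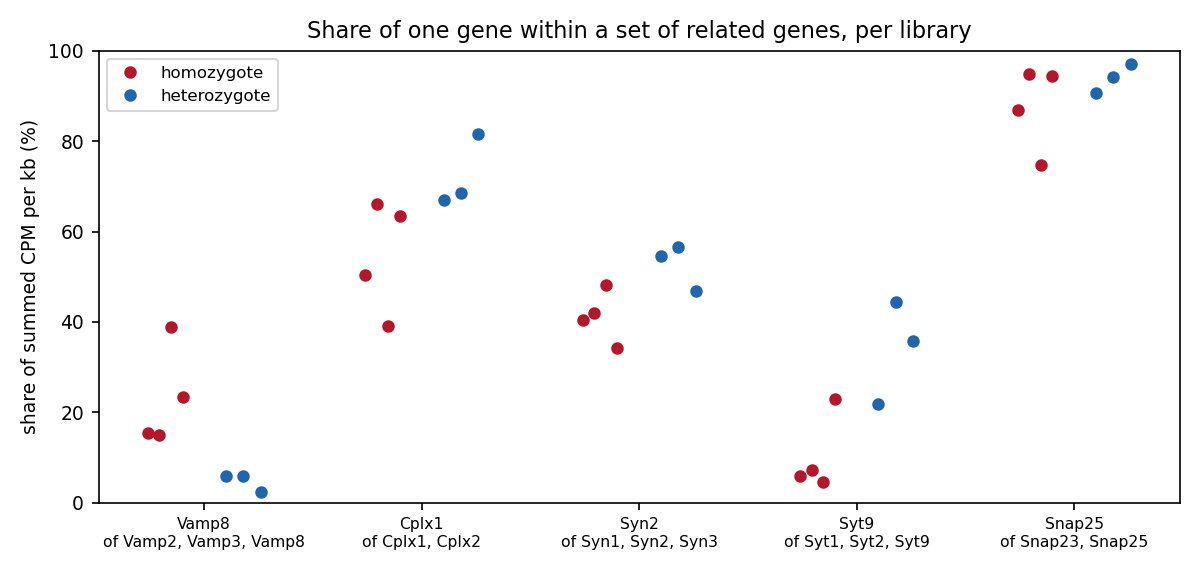
Share of one member in the summed CPM per kb of exon of its set, in percent, in each homozygote library (red, left) and heterozygote library (blue, right). The shares of Vamp8 (15 to 38.8% in homozygotes, 2.40 to 5.92% in heterozygotes) and Cplx1 separate by genotype, and that of Snap25 overlaps.

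Release genes outside these families were read from lists drawn up by function. No gene of these lists was called by edgeR at an adjusted p below 0.05. The DESeq2 calls given below stand beside 3.46% higher and 1.3% lower of all genes that it tested. Of 30 tested genes of priming, docking and the active zone, 8 had a positive and 22 a negative log2 fold change, with a median of -0.26, and 1 was higher and 3 were lower at an unadjusted p below 0.05 in edgeR, beside 7.75% higher and 4.88% lower over all tested genes. Rab27a, a GTPase that docks secretory granules in blood cells and many secretory cells, had 3.21, 6.22, 29.8 and 4.58 CPM in homozygotes, against 0.078, 0.865 and 0.782 CPM in heterozygotes. Its groups did not overlap, it peaked in homozygote library 3 like Vamp8 and Stxbp2, and it was called by DESeq2 (log2 fold change 4.24 ± 1.05, SE, edgeR, and 3.30 without homozygote library 3 and heterozygote library 3). The 3 lower genes were Unc13b (Munc13-2, a priming factor), Sytl4 (granuphilin) and Rimbp2 (a Rim-binding scaffold), with log2 fold changes of -0.72, -1.59 and -1.2 and overlap between genotypes. Among 25 genes of vesicle endocytosis, with a median of -0.079, 4 were higher and 1 was lower at an unadjusted p below 0.05, beside the same 7.75% and 4.88% of all tested genes. DESeq2 called Ap2s1, the small subunit of the AP-2 clathrin adaptor, and Dnm2, the broadly expressed dynamin. Dnm2 overlapped between genotypes and was highest in homozygote library 3, at 82.1 CPM. Its log2 fold change was 1.18 ± 0.33 (SE, edgeR), and 0.86 without homozygote library 3 and heterozygote library 3. Ap2s1 had 48.1, 88.1, 90.4 and 126 CPM in homozygotes, against 39.5, 12.1 and 16.9 CPM in heterozygotes, without overlap and with homozygote library 4 highest (log2 fold change 1.95 ± 0.44, SE, edgeR). Of 12 tested dense-core granule genes, with a median of -0.10, none was higher and 2 were lower at an unadjusted p below 0.05. The shares over all tested genes were again 7.75% and 4.88%. DESeq2 called Pam, the enzyme that amidates neuropeptides, at 23, 24.5, 36.2 and 27.6 CPM in homozygotes, against 38.4, 60.4 and 90.7 CPM in heterozygotes, without overlap (log2 fold change -1.18 ± 0.30, SE, edgeR). Of 19 tested genes of vesicle proteins and transmitter loading, with a median of -0.0919, Syngr2, a broadly expressed synaptogyrin, was higher by DESeq2 (log2 fold change 1.88 ± 0.56, SE, edgeR). Syngr2 was also highest in homozygote library 3, at 63.6 CPM, and its log2 fold change was 1.25 without homozygote library 3 and heterozygote library 3. Without these 2 libraries it was 1.76 for Ap2s1 and -0.97 for Pam. The edgeR fit with the leukocyte mean as a covariate gave 2.06 for Rab27a, 1.31 for Ap2s1 and 0.36 for Dnm2. That fit gave 0.70 for Syngr2 and -0.90 for Pam. None of the 9 exocyst genes, whose median was -0.10, had an unadjusted p below 0.05 in edgeR or was called by DESeq2.

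The 6 members called by DESeq2 kept their direction under most other settings. Syn2, Syt9, Syt16, Vamp8 and Stxbp2 kept it in all 21 alternatives tried, and Cplx1 in 20 of them. All 6 were without overlap between genotypes, so leaving out libraries or changing only the test could hardly turn their sign. Log2 fold changes ranged from 0.63 to 2.97 for Vamp8, from 0.33 to 1.97 for Stxbp2, and from -1.41 to -0.96 for Syn2. Within the window of label dates from heterozygote library 3 to homozygote library 4, which leaves out homozygote libraries 1 and 3, they were 1.82 for Vamp8, 1.2 for Stxbp2, -1.02 for Syn2 and -1.64 for Syt9, and what the dates stand for is not stated. When DESeq2 was rerun without each library in turn, Vamp8 and Stxbp2 were called in all 7 runs and Syn2 in 6, the exception being the run without heterozygote library 2, while the number of members called was between 3 and 8. It was 3 without heterozygote library 3, without homozygote library 2 and without homozygote library 3, and in these 3 runs Cplx1, Syt9 and Syt16 were not called. Over the 7 runs Cplx1 was called in 3, and Syt9 and Syt16 in 2 each. Of all genes these runs called 373 to 797, against 719 with every library.

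**Figure D5:**
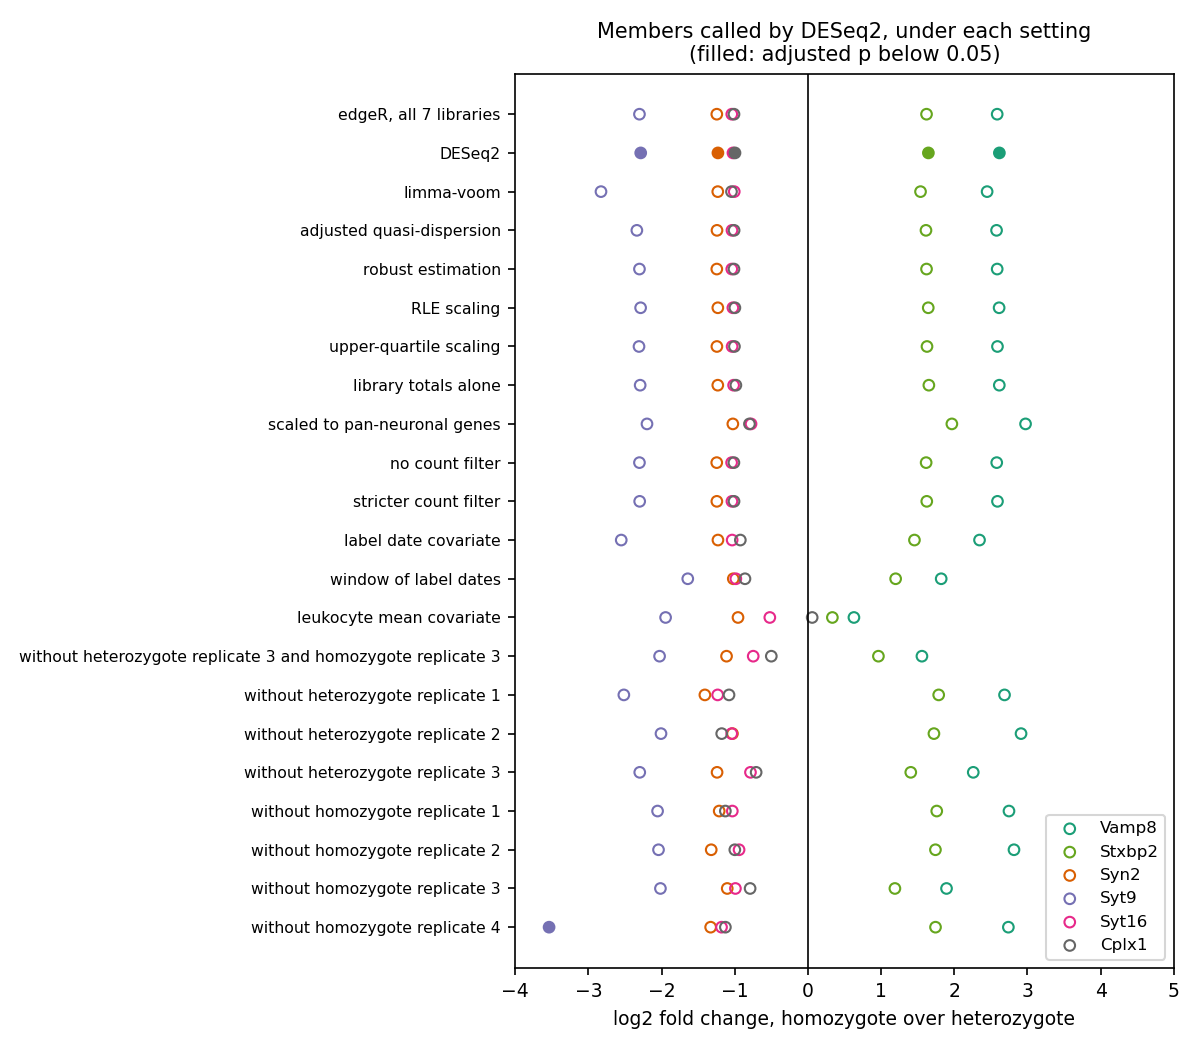
Log2 fold change, homozygote over heterozygote, of the 6 members called by DESeq2 under the fit reported (top) and the 21 alternatives, 1 row per setting, with filled points for an adjusted p below 0.05. Vamp8 and Stxbp2 stay right of 0 but move to 0.63 and 0.33 with the leukocyte mean as a covariate, Cplx1 crosses 0 there to 0.0586, and Syt9 is filled without homozygote replicate 4 at -3.54.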

How the data were processed

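RNA was amplified with a SMARTer kit and read as single-end 50-base sequence, per the labels' protocols. The deposited table holds the raw count of each gene in each library. Per the submitters' processing notes, the authors' tools included TopHat 1.4.0, HTSeq and DESeq2 1.2.8 and their build was mm9, with no roles stated. Neither the annotation nor the strand setting is stated, so reads of overlapping or antisense genes cannot be told apart. The table also holds the authors' log2 fold changes with their adjusted p-values, deposited with heterozygotes on top; the sign was turned here, and they were printed for comparison only. For heterozygote library 1, whose title and source name disagree on the month of its date, month 11 of the source name was used.

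Members were the genes whose symbol matched the family rule. The count filter was filterByExpr with a minimum count of 10 and a minimum total of 15. With R 4.3.3 and edgeR 4.0.16, TMM scaling was followed by the two-sided quasi-likelihood test of homozygote against heterozygote, adjusted by Benjamini-Hochberg over all 14040 genes and called below 0.05. SE was taken from the log2 fold change over the root of F. Alternatives were DESeq2 1.42.0, limma 3.58.1 (voom) and other scalings, filters, covariates and left-out libraries. Reruns of DESeq2 without libraries or with the leukocyte covariate were added after seeing the data. Steps were tested on simulated data. No library repeated another of its genotype: chi-square values per degree of freedom were 30.7 to 76.4 between pairs.

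Values per library are given for members called by edgeR or DESeq2, up to 8 with the smallest p in each direction, the most abundant of each family and a core set (Snap25, Stx1a, Vamp2, Syt1), 23 in all. Some genes are not reported here. Members and lists were chosen with earlier results of these data known. Levels per kb use merged exon lengths of an annotation on GRCm38, another build than the files. Promoters are from RefSeq on GRCm38.p6. The limit that a count of 0 allows was set at 3 counts and covers counting error only.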

Additional observations from a re-analysis of the deposited data

Results flagged for a closer look

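Among the 54 tested genes, the highest or lowest of the 4 homozygote libraries stood far from the others for 6. The gap rule is nominally passed by about 1 in 20 groups of independent, normally distributed values. These genes share the same libraries, and the share over all tested genes is not given here, so 6 is not shown to be an excess. Homozygote library 3 was far above the rest for Vamp8, at 81.0 CPM with the next library at 25.5 CPM, and for Stxbp2, at 98.1 CPM with the next at 41.3 CPM. The same library was far below the rest for Syt11, at 731 CPM with the next at 1047 CPM. Its leukocyte markers summed to 4090 CPM, against 675 to 943 CPM in the other homozygotes, and its pan-neuronal genes to 15876 CPM, against 24330 to 26632 CPM, and the part of either in these gaps was not tested. Homozygote library 4 was far above the rest for Syt9, at 16.0 CPM with the next at 2.84 CPM, for Vamp1, at 6.44 CPM with the next at 1.09 CPM, and for Syn3, at 24.4 CPM with the next at 11.8 CPM.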

How the results depend on the processing

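Of 23 members followed through 21 alternatives, 12 kept their sign in all and 11 changed it in at least 1, and the cause was not tested. edgeR called 7 genes as reported, 61 with the adjusted quasi-dispersion, 3 after scaling to pan-neuronal genes, 80 with no count filter, 3 with the label date as a covariate, 0 with the leukocyte mean as a covariate and 12 without libraries 3 of both genotypes, while DESeq2 called 719. Leaving out 1 library gave 1 to 27 called genes, 0 or 1 called members and members' medians of -0.30 to -0.0838. Called members numbered 6 with DESeq2, and 3 to 8 with DESeq2 when 1 library was left out, 1 without libraries 3 and 0 with the leukocyte covariate. Of all genes DESeq2 called 373 to 797 with 1 library left out, 240 without libraries 3 and 42 with that covariate. The members' median, -0.21 as reported, was 0.0275 with pan-neuronal scaling, -0.0827 in the window of label dates, -0.00124 with the leukocyte covariate and -0.0933 without libraries 3. Log2 fold changes changed sign as follows. With pan-neuronal scaling Syt11 was 0.0323. In the window of label dates Cplx2 was -0.27, Snap23 -0.00438, Snap25 0.0975 and Vamp3 -0.0118. With the leukocyte covariate Cplx1 was 0.0586, Rab3d 0.015, Snap23 -0.33, Snap25 0.61, Sv2a 0.59, Syt11 0.38 and Vamp5 -0.68. That covariate did not overlap between genotypes, so its fit cannot fully separate it from genotype. Without libraries 3 Snap25 was 0.18, Sv2a 0.0887 and Syt11 0.0858. With 1 library left out, Vamp4 was -0.00757 (heterozygote library 2), and Cplx2 -0.11 and Rims2 -0.093 (homozygote library 1). Over the runs with 1 library or libraries 3 left out, Cplx2 lay between -0.11 and 0.33, Rims2 between -0.093 and 0.90, Snap25 between -0.49 and 0.18, Sv2a between -0.59 and 0.0887, Syt11 between -0.35 and 0.0858 and Vamp4 between -0.00757 and 0.26. No paired analysis was possible because the labels give no replicate numbers shared between genotypes. Depth limits members with few counts per library, such as Stx11.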

Other observations

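Vamp5 and Vamp8 are neighbouring protein-coding genes on chromosome 6, and both had a positive log2 fold change, 2.68 ± 1.28 (SE) for Vamp5 and 2.59 ± 0.60 (SE) for Vamp8, at adjusted p-values of 0.43 and 0.128 in edgeR. Both were highest in homozygote library 3, at 12.3 CPM for Vamp5 and 81.0 CPM for Vamp8. The genotypes overlapped for Vamp5, and its log2 fold change was -0.68 with the leukocyte mean as a covariate.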
